A study of Mus musculus with 4 samples.

Results

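Cytochrome P450 genes were taken as every gene whose GENCODE vM21 symbol is Cyp followed by a number, letters and a number, with Cyp51 left out by that rule. This gave 94 of the 55487 genes in the deposited tables, all annotated as protein coding, in 16 families and 39 subfamilies. A further 37 symbols that begin with Cyp fell outside the rule, 30 of them pseudogenes. RNA was measured in 2 groups of 2 libraries from mice carrying the Lgr5-EGFP-IRES-creERT2 allele, aged 6 to 12 weeks and given no treatment per the labels. The first group (SISC) is Lgr5-EGFP+/CD24- cells sorted from crypts of small intestine taken near the pylorus and near the cecum. The second group (LISC) is Lgr5-EGFP+ cells sorted from crypts of the large intestine, from cecum to rectum, for which no CD24 gate is described. The reporter marks cells that express Lgr5, the crypt stem cell receptor for R-spondins, and this knock-in allele is known to be silent in a share of crypts. The labels do not say whether libraries came from separate animals or from pools, so a p-value here measures only the spread between libraries, which may be technical.

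P450 enzymes hold a haem iron that activates oxygen and inserts an oxygen atom into a substrate. Members of families 1 to 3 mostly oxidise drugs, plant compounds and other foreign chemicals, and several of them also oxidise arachidonic acid. Family 4 hydroxylates fatty acids and leukotrienes near the end of the chain, and the higher-numbered families build or break down steroids, bile acids, vitamin D and retinoids. In the gut wall P450 enzymes are best known from mature enterocytes, where they are the first enzymes to meet compounds taken up from food. Enzymes of the endoplasmic reticulum receive electrons from P450 oxidoreductase (Por), and mitochondrial ones from adrenodoxin (Fdx1).

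P450 transcripts were a small part of each library. Their share of counts was larger in LISC than in SISC. Their summed TPM overlapped between SISC replicate 2 and LISC replicate 1, libraries with unlike shares of ribosomal RNA. Within each replicate number the summed TPM was larger in LISC. Summed TPM (RSEM's transcript level per length, scaled to a fixed total in each library) over the 94 genes was 96.9 and 226 for the SISC libraries (replicates 1 and 2) and 192 and 528 for the LISC libraries. As a share of expected counts outside ribosomal RNA, the 94 genes took 0.0325% and 0.0433% in SISC and 0.0695% and 0.0914% in LISC. The Cyp2c subfamily alone took 9.12% and 8.18% of the summed P450 TPM in SISC and 45.5% and 57.8% in LISC. Total expected counts ran from 12795434 to 27227715 per library. Ribosomal RNA took 31.8% and 36.6% of counts in the replicate 1 libraries of SISC and LISC and 0.246% and 0.304% in the replicate 2 libraries. For that reason the log2 ratio of LISC over SISC is given within each replicate number beside the results. Levels of a gene in each library are given below as CPM (counts scaled to a common library total with TMM factors) where groups are compared, and as TPM where genes are compared. Lgr5 itself was measured at 113, 173, 147 and 89.8 CPM in SISC 1, SISC 2, LISC 1 and LISC 2, and the groups overlapped. Other stem cell markers did not all match. The sum over 6 stem markers, with Lgr5, was 9668 and 14870 CPM in SISC and 1523 and 1366 in LISC. Olfm4 made up most of the SISC sum, at 7765 and 12470 CPM against 91.5 and 108 in LISC, and was called higher in SISC. Smoc2, Axin2 and Slc12a2 were also lower in LISC without overlap, while Ascl2 overlapped.

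Summed markers of several other cell types differed between the groups, and single markers were mostly not called by edgeR. The summed CPM of 6 Paneth cell markers was 8572 and 1283 in SISC and 53.7 and 25.0 in LISC. Over 8 colonocyte markers the sum was 111 and 46.6 in SISC and 389 and 1573 in LISC, with Car1 and Aqp8 at 0 counts in SISC and 1 of the 8, Car4, called higher in LISC. Over 10 small-intestinal enterocyte markers it was 299 and 360 in SISC and 162 and 255 in LISC, and 3 of them were called higher in SISC. Fabp2 and Slc5a1, also among the 10, overlapped between the groups. Goblet cell markers summed to 1845 and 322 in SISC and 3080 and 4180 in LISC, with none called by edgeR. Enteroendocrine markers summed to 144 and 24.9 in SISC and 42.9 and 41.25 in LISC, which overlap. Leukocyte markers summed to 2.22 to 6.50 CPM, with the groups overlapping, and fibroblast and muscle markers to at most 1.03. Tuft cell markers summed to 16.1 and 4.44 CPM in SISC against 58.9 and 92.5 in LISC, without overlap, with Gnat3 at 0 counts in SISC. None of the tuft markers was called by edgeR. In bulk samples a change in the number of cells of a type and a change in RNA per cell cannot be told apart, and the part of these other cell types in the P450 differences was not tested.

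Of the 94 genes, 59 had a count in at least 1 library and 35 had none in any. A mean TPM of at least 1 in either group was reached by 23 genes and of at least 10 by 13. The filter on low counts kept 30 of the 94 for the test and left 29 that had counts. The genes with no count include the family 1 enzymes Cyp1a1, Cyp1a2 and Cyp1b1, the classical targets of the aryl hydrocarbon receptor. They also include the bile acid enzymes Cyp7a1 and Cyp8b1 and the adrenal steroid enzymes Cyp11b1, Cyp11b2 and Cyp21a1. A count of 0 allows up to 3 counts, or 0.110 to 0.234 unscaled CPM depending on the library, which covers counting error only.

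**Figure D1:**
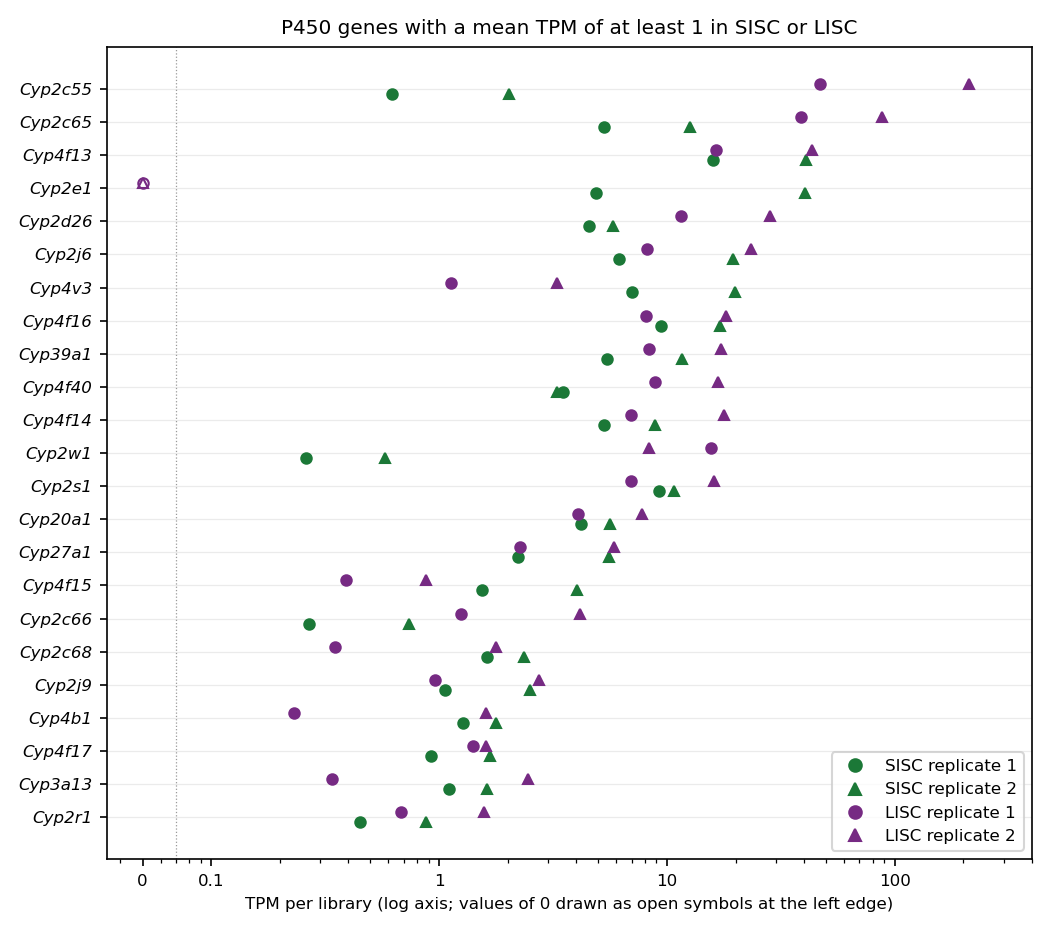
TPM in each of the 4 libraries (log axis) for the 23 P450 genes with a mean TPM of at least 1 in SISC or LISC, ordered by the higher group mean. Green symbols are SISC and purple symbols LISC, circles replicate 1 and triangles replicate 2. Cyp2c55 has the highest LISC values (47.0 and 211 TPM) and Cyp2e1 is at 0 in both LISC libraries.

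The sequences around the start sites of the genes that parted the groups are shown here, since neighbours on the same chromosome had very different levels. Each window runs from 250 bases before to 50 bases after the start of a RefSeq transcript (GRCm38.p6), on the strand of the gene. That start can lie some bases from the GENCODE one. Cyp2c55, Cyp2c65, Cyp2d26 and Cyp2w1 are the genes called higher in LISC. Cyp2c66 is the near copy of Cyp2c65. Cyp2e1 and Cyp4v3 were added after their values were seen, as the 2 genes with a mean of at least 10 TPM in SISC that were lower in LISC at an unadjusted edgeR p below 0.05. Capitals mark exact matches to a motif described after the sequences. The windows are chr19:39006769-39007068 (plus strand) for Cyp2c55, chr19:39060756-39061055 (plus) for Cyp2c65 and chr19:39113648-39113947 (plus) for Cyp2c66. They are chr15:82794196-82794495 (minus) for Cyp2d26 and chr5:139352366-139352665 (plus) for Cyp2w1. They are chr7:140763569-140763868 (plus) for Cyp2e1 and chr8:45333114-45333413 (minus) for Cyp4v3.
Cyp2c55: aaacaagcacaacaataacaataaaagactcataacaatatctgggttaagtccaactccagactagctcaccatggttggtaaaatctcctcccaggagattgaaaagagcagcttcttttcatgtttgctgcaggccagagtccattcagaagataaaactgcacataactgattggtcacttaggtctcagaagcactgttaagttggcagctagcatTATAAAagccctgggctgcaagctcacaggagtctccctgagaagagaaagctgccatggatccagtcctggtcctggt
Cyp2c65: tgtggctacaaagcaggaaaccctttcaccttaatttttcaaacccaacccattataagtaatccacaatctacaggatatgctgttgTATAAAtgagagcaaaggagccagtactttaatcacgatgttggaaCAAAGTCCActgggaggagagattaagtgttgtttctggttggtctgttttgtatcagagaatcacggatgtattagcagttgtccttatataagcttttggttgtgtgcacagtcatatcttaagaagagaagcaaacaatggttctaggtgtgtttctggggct
Cyp2c66: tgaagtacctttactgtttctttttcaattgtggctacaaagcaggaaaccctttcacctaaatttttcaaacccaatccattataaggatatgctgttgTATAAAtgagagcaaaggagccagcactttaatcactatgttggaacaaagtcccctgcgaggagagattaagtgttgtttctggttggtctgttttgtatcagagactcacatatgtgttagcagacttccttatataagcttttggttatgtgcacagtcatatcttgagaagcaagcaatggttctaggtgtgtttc
Cyp2d26: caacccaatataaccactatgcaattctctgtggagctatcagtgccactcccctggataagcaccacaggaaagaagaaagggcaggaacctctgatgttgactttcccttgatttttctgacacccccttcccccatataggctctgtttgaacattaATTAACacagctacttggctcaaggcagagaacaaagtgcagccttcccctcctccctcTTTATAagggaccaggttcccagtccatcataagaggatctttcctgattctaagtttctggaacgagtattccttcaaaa
Cyp2w1: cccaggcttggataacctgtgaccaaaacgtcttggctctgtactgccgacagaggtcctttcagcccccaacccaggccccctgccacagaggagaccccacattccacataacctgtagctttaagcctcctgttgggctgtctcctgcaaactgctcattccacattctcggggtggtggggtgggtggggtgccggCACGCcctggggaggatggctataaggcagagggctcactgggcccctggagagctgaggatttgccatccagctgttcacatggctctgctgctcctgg
Cyp2e1: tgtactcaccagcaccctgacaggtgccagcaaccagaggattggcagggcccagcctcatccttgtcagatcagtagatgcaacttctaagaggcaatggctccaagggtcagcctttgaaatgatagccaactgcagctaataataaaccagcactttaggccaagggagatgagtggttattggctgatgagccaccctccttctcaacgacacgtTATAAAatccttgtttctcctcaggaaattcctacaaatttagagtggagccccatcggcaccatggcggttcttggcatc
Cyp4v3: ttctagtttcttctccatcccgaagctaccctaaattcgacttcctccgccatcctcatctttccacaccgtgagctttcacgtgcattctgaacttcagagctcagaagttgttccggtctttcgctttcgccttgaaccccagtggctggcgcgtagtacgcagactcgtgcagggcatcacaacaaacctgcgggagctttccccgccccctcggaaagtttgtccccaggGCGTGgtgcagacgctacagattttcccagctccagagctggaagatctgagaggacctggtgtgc

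The motifs were chosen after these letters had been read, and both strands were searched. TATAAA, the core of a TATA box, was found in 13.6% of all 32851 RefSeq windows of 300 bases and in 32 of the 83 windows of P450 genes, which cover 73 of the 94 genes. It lay 29 to 24 bases before the start in Cyp2c55 and 31 to 26 bases before it in Cyp2e1. In Cyp2d26 it lay at the latter distance on the other strand, where the printed letters read TTTATA. Cyp2c65 and Cyp2c66 had it farther upstream, 162 to 157 and 150 to 145 bases before the start. Only exact TATAAA was searched, so a window without a match there can still hold a related form. The printed letters of Cyp2c65, Cyp2c66, Cyp2d26 and Cyp2w1 also read TATAAG on the gene strand. In Cyp2c65 and Cyp2c66 a stretch with TATAAG lay nearer the start than TATAAA. CAAAGTCCA, a form of the element bound by HNF4 factors, was in 0.475% of all windows and in 9 of the 83. Cyp2c65 had it 116 to 108 bases before the start, and Cyp2c66 had no exact match in its window. Of the 9 P450 genes with this element, 3 were tested here (Cyp2c65, Cyp2c68 and Cyp2c70) and 4 had no count in any library. GCGTG, the core bound by the aryl hydrocarbon receptor with Arnt, was in 32.4% of all windows and in 17 of the 83. Cyp4v3 had it 16 to 12 bases before the start and Cyp2w1, on the other strand, 50 to 46 bases before it. GTTAAT, part of the HNF1 element, was in 7.10% of all windows and in 10 of the 83, with Cyp2d26 among them, on the other strand 90 to 85 bases before the start. AGGTCA, the core bound by many nuclear receptors, was in 16.3% of all windows and in 22 of the 83, but in none of those printed. Exact matches are descriptions of these letters, and no binding was measured here.

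In the test across all 14165 genes kept, 4 of the 30 P450 genes tested (13.3%) were called higher in LISC, against 1.45% of all genes tested. None was called higher in SISC, against 0.741% of all genes (edgeR quasi-likelihood test, Benjamini-Hochberg adjusted over all genes, threshold 0.05). At an unadjusted p below 0.05, 12 of the 30 were counted, 7 higher in LISC and 5 higher in SISC, against 13.4% of all genes. DESeq2 on the same counts called 7 P450 genes higher in LISC, against 5.54% of all genes, and 3 higher in SISC, against 2.81%. In 20 of the 30 the CPM values of the groups did not overlap, 13 with LISC higher, against 21.9% of all genes tested, and 7 with SISC higher, against 18.4%. The members were chosen with earlier results of these data known, so these shares describe them and are no test of the family. The log2 difference was under 1 in size for 17 of the 30. Without SISC replicate 2 edgeR called 2 higher in LISC, against 1.26% of all genes. With any single library left out it called 1 or 2 higher in SISC, against 0.544% to 0.974% of all genes. In each such fit the group of 1 library is assumed to vary like the other group.

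**Figure D2:**
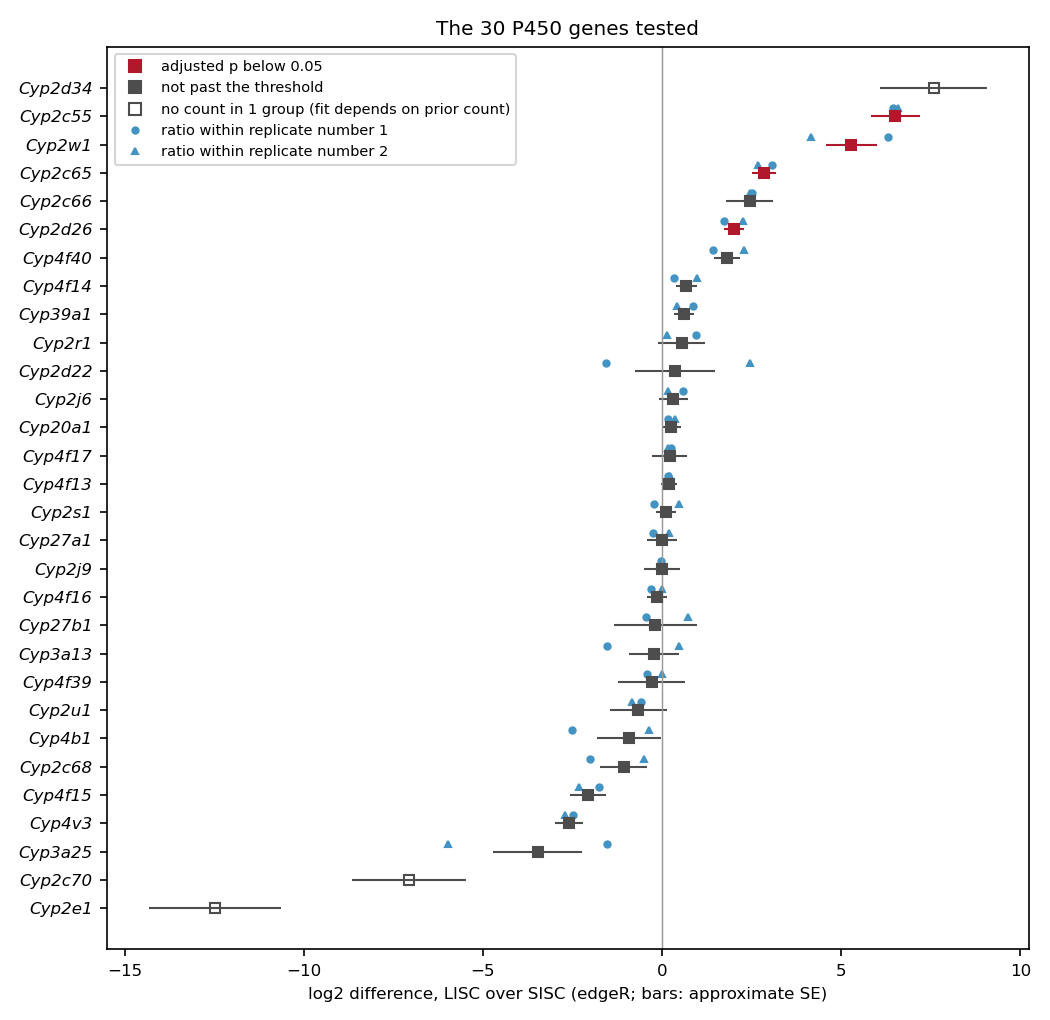
Log2 difference of LISC over SISC for the 30 P450 genes tested with edgeR, with approximate SE. Red squares are the 4 genes with an adjusted p below 0.05, open squares the 3 genes without a count in 1 group, whose fitted value depends on the prior count, and blue symbols the ratio within replicate number 1 (circles) and 2 (triangles). Most squares lie within 1 log2 unit of 0, and both ratios of each called gene lie on the same side.

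Among the family 2 genes, Cyp2c55, Cyp2c65, Cyp2d26 and Cyp2w1 were called higher in LISC by edgeR. The Cyp2c genes summed to 8.84 and 18.5 TPM in SISC and 87.4 and 305 TPM in LISC, and the sum was not tested. The largest Cyp2c contributor in LISC was Cyp2c55 (ENSMUSG00000025002, chromosome 19, 39007019 to 39042693, plus strand), an enzyme of the mouse colon that forms 19-hydroxyeicosatetraenoic acid from arachidonic acid. Its CPM was 1.53 and 3.12 in SISC and 133 and 300.3 in LISC. Both LISC libraries lay far above both SISC libraries. The log2 difference was 6.51 ± 0.69 (SE, 2 libraries a group, 91.3-fold) with an edgeR adjusted p of 0.0269, and the ratios within replicate numbers were 6.45 and 6.59. On the TPM scale the group means were 1.32 ± 0.997 (SD, n = 2) in SISC and 129 ± 116 in LISC. Cyp2c55 alone made up 24.5% and 39.9% of the summed P450 TPM in the LISC libraries. The LISC library with more Cyp2c55, replicate 2, was also the one with the higher sum of colonocyte markers (1573 against 389 CPM). Sums of goblet and tuft cell markers were higher in that library too, and that of Paneth cell markers was lower. Cyp2w1, also called higher in LISC, was lower in that library (8.42 against 22.9 CPM). The part of any cell type in the Cyp2c55 values was not tested.

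Cyp2c65 (ENSMUSG00000067231, chromosome 19, 39061015 to 39093944, plus strand), the next gene along the chromosome, is an intestinal P450 that also oxidises arachidonic acid. Its CPM was 12.6 and 18.8 in SISC and 106 and 121 in LISC, with no overlap. The log2 difference was 2.85 ± 0.33 (7.21-fold, edgeR adjusted p = 0.0311), and it was 3.07 and 2.69 within replicate numbers. Unlike Cyp2c55, this gene had appreciable transcript in SISC, with 5.32 and 12.6 TPM. Without SISC replicate 1 the edgeR adjusted p was 0.0548 at a log2 difference of 2.59.

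Cyp2c66 (ENSMUSG00000067229) follows on the same strand and has 96.3% of its aligned coding bases in common with Cyp2c65 and 94.5% of its promoter window. Reads that fit both were divided by RSEM, and 19.5% of the 50-base stretches of its annotated transcripts recur in other genes, with Cyp2c65 as the top partner. The SD that RSEM gives for its count was at most 2.29, on counts of 7.04 and 29.4 in SISC and 31.4 and 145 in LISC. CPM was 0.509 and 0.906 in SISC and 2.87 and 4.98 in LISC, a log2 difference of 2.45 ± 0.65 that edgeR did not call (adjusted p = 0.174) and DESeq2 did (adjusted p = 0.0293). Cyp2c55 has 75.8% of coding bases in common with Cyp2c65, and 0.514% of its stretches recur in other genes.

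Beyond these 3 neighbours the Cyp2c cluster held few counts, as the plot of levels in gene order shows. Cyp2c38, Cyp2c39, Cyp2c67, Cyp2c40, Cyp2c37, Cyp2c54 and Cyp2c50 had no count in any library. Cyp2c29 and Cyp2c69 each reached at most 0.150 TPM. Cyp2c68 was measured at 3.35, 3.09, 0.834 and 2.17 CPM in SISC 1, SISC 2, LISC 1 and LISC 2, with an edgeR adjusted p of 0.675. It is also close to its neighbours, with 43.3% of its stretches recurring. At the far end of the cluster, Cyp2c70, a mouse liver enzyme that makes muricholic acids, had 14 and 18 counts in SISC and 0 in both LISC libraries. Against a floor of 3 counts per library the SISC mean is at least 4.15-fold higher, and edgeR gave an adjusted p of 0.163.

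**Figure D3:**
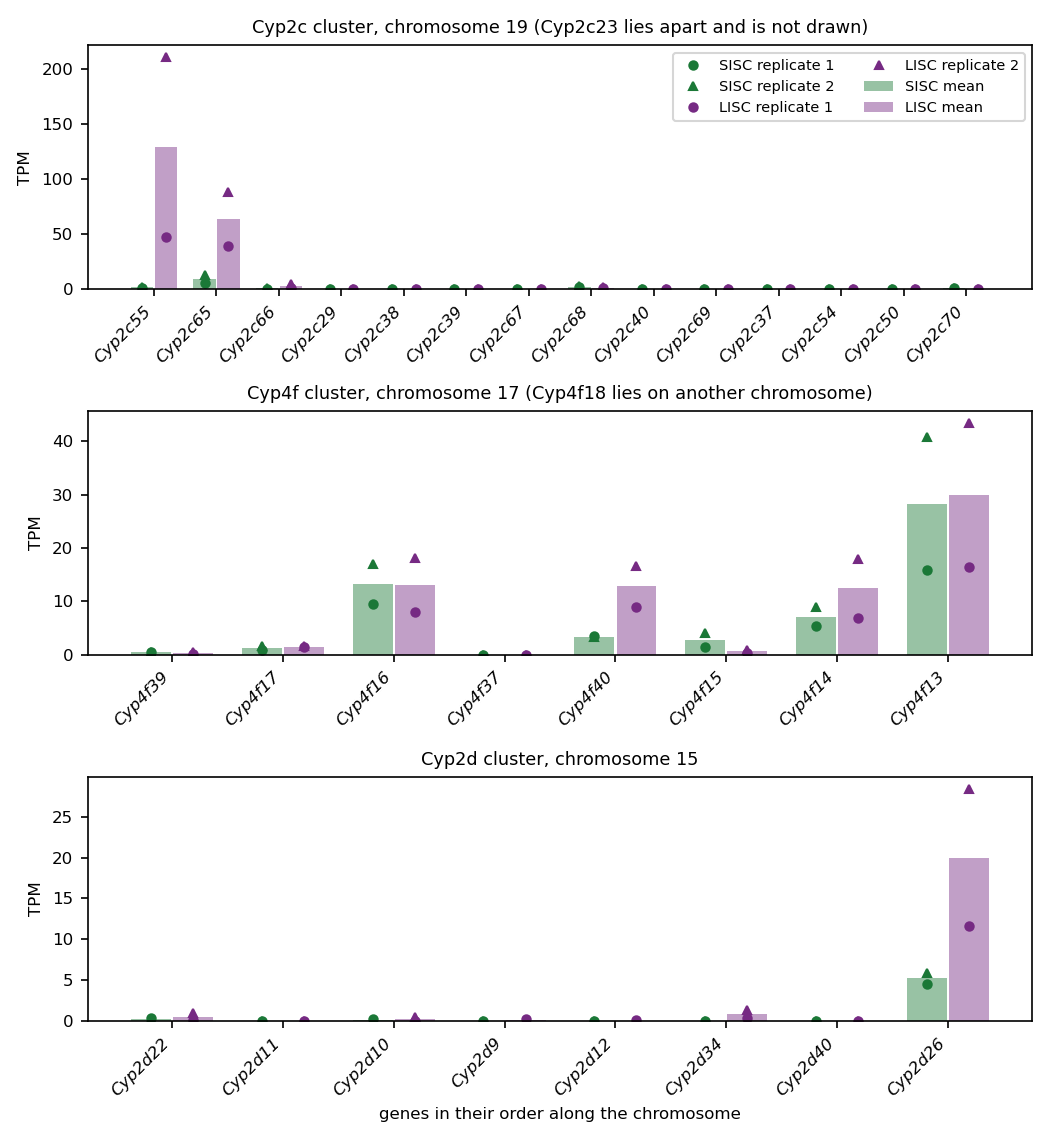
TPM of P450 genes in their order along 3 gene clusters. Bars are group means over 2 libraries, green for SISC and purple for LISC, and symbols are the libraries (circles replicate 1, triangles replicate 2). LISC signal in the Cyp2c cluster sits in its first 2 genes, Cyp4f13 is the highest Cyp4f gene in both groups, and Cyp2d26 holds nearly all signal of the Cyp2d cluster.

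Cyp2d26 (ENSMUSG00000022445, chromosome 15, 82790101 to 82794294, minus strand) belongs to the subfamily of human CYP2D6, which oxidises many drugs. It was measured at 7.93 and 7.03 CPM in SISC against 26.0 and 33.7 in LISC. The groups did not overlap, and the log2 difference was 2.00 ± 0.28 (edgeR adjusted p = 0.0442), with 1.72 and 2.26 within replicate numbers. This call was lost without SISC replicate 1 (edgeR adjusted p = 0.0554), without SISC replicate 2 (0.0945) and without LISC replicate 2 (0.130). Cyp2d26 carried nearly all Cyp2d signal, with 5.19 ± 0.91 TPM (SD, n = 2) in SISC and 20.01 ± 11.9 TPM in LISC. Cyp2d34 had 0 counts in SISC and 8 and 42 in LISC, at least 7-fold higher in LISC against the floor and uncalled in edgeR (adjusted p = 0.127) and called in DESeq2 (adjusted p = 0.0167). Cyp2d22 went opposite ways within the replicate numbers, with log2 ratios of -1.56 and 2.46. Cyp2d10, which was not tested, had 4 and 2 counts in SISC and 0 and 13.9 in LISC.

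Cyp2w1 (ENSMUSG00000029541, chromosome 5, 139352617 to 139357033, plus strand) is known from the fetal gut and from human colon tumours, and its natural substrate is not settled. Its CPM was 0.291 and 0.469 in SISC, from 4 and 15 counts, and 22.9 and 8.42 in LISC, from 247 and 245 counts. LISC lay above SISC in both replicate numbers, by log2 ratios of 6.30 and 4.17. The log2 difference was 5.28 ± 0.71 (38.9-fold, edgeR adjusted p = 0.0428). The spread between LISC libraries is wide for this gene, and without SISC replicate 2 the adjusted p was 0.0658.

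Cyp2e1 (ENSMUSG00000025479, chromosome 7, 140763739 to 140774987, plus strand), the ethanol-oxidising P450 of the liver, showed the opposite distribution. It had 148 and 1785 expected counts in SISC and 0 in both LISC libraries, or 10.8 and 55.8 CPM against 0. Measured against the floor of 3 counts per library, the SISC mean of 33.3 CPM was at least 175-fold higher. That mean rests mostly on replicate 2. The edgeR adjusted p was 0.0756 and that of DESeq2 2.24e-10. Its SISC libraries differed from each other by a larger factor than those of any other of the 13 genes with a mean of at least 10 TPM, at 4.87 and 40.4 TPM. It was 5.03% of summed P450 TPM in replicate 1 and 17.9% in replicate 2. With any single library left out the edgeR adjusted p was between 0.00517 and 0.0338. Where a SISC library is left out, the spread comes from LISC libraries at 0 counts, so those p-values are no support for the difference. Paneth cell markers were higher in SISC replicate 1, the library with less Cyp2e1. The 3 hepatocyte markers summed to 288 and 147 CPM in SISC against 118 and 113 in LISC. Apob, also an enterocyte gene, made up most of that sum, with 273 and 119 CPM in SISC against 83.1 and 68.4 in LISC. Ttr was at 15.1 and 27.9 CPM in SISC against 34.3 and 43.2 in LISC, and Alb had 0 counts in SISC and 4 and 26 in LISC. The 10 small-intestinal enterocyte markers summed to 298.5 and 359.9 CPM in SISC. From SISC replicate 1 to 2 single enterocyte markers moved both ways, with Apoa1, Fabp1 and Fabp2 among those higher in replicate 2 and Sis and Alpi lower. The part of any of these cell types in the Cyp2e1 values was not tested.

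Of the other family 2 genes, Cyp2j6, Cyp2j9, Cyp2r1, Cyp2s1 and Cyp2u1 were tested, and each had a log2 difference under 1 in size. Cyp2j6, an intestinal enzyme that oxidises arachidonic acid to epoxides, was measured at 29.8 and 56.5 CPM in SISC and 44.4 and 63.1 in LISC. Those values overlap, and the log2 difference was 0.32 ± 0.41 (edgeR adjusted p = 0.948). It supplied most of the Cyp2j sum, and its relative Cyp2j9 was at 1.79 ± 1.03 TPM in SISC and 1.86 ± 1.27 TPM in LISC (SD, n = 2). Cyp2s1, a P450 of barrier epithelia, was at 33.1 and 23.7 CPM in SISC against 28.2 and 32.7 in LISC, a log2 difference of 0.10 ± 0.27. An antisense-strand transcript, Gm26707, overlaps Cyp2s1, and which strand setting was used to count reads is not stated in the labels. Cyp2r1, a vitamin D 25-hydroxylase, was low at 0.665 ± 0.304 TPM in SISC and 1.13 ± 0.64 TPM in LISC. Cyp2j13 and Cyp2b10 were not tested, with 0, 0, 2 and 13 counts and 2, 13, 0 and 4 counts in SISC 1, SISC 2, LISC 1 and LISC 2. Cyp2b10 is the mouse target of the receptor CAR, encoded by Nr1i3.

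The Cyp3a enzymes, which handle most drugs in the adult human gut and liver, were low throughout. Their sum was 1.76 and 4.06 TPM in SISC and 0.530 and 2.82 TPM in LISC. Cyp3a13, the main intestinal form of the mouse, was measured at 4.29 and 3.81 CPM in SISC against 1.48 and 5.33 in LISC, and the groups overlapped. Its within-number ratios had opposite signs, at -1.53 and 0.48. Cyp3a25 had 11 and 69 counts in SISC and 3 and 1 in LISC, a log2 difference of -3.48 ± 1.25 (adjusted p = 0.324 in edgeR). Cyp3a11, the main pregnane X receptor target of mouse liver, was not tested, with 5 and 27 counts in SISC and 0 and 2 in LISC. Its pooled ratio was 13.9-fold higher in SISC, with a 95% counting interval of 3.56 to 120. Cyp3a59 had 6 and 25 counts in SISC and none in LISC, at least 3.19-fold higher. Cyp3a25 and Cyp3a59 share 26.8% and 30% of their 50-base stretches with other genes, and each is the top partner of the other.

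The Cyp4f subfamily, which hydroxylates leukotriene B4 and other long-chain fatty acids, held the largest subfamily sum in SISC. It amounted to 38.3% and 33.7% of summed P450 TPM there, against 22.1% and 18.8% in LISC. As a level the Cyp4f sum was 37.2 and 76.2 TPM in SISC and 42.5 and 99.0 TPM in LISC, so the lower share stood beside a larger P450 total. Cyp4f13 was the highest P450 gene by TPM in both SISC libraries, with 15.9 and 40.7, and it had 16.5 and 43.4 TPM in LISC. In CPM it was 23.0 and 24.8 in SISC and 25.9 and 28.9 in LISC. These values do not overlap, yet the log2 difference was only 0.20 ± 0.23 (edgeR adjusted p = 0.927). Cyp4f16 stood at 22.9 and 25.5 CPM in SISC and 18.5 and 25.3 in LISC, with a log2 difference of -0.14 ± 0.27. It is 96.1% identical in coding bases to Cyp4f37, which had almost no counts.

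Within the same cluster, Cyp4f40 and Cyp4f15 lay apart in opposite directions although neighbours on chromosome 17. Cyp4f40 (ENSMUSG00000090700) was measured at 9.75 and 5.40 CPM in SISC and 26.2 and 26.2 in LISC, without overlap. Its log2 difference was 1.80 ± 0.36, uncalled in edgeR (adjusted p = 0.0989) and called in DESeq2 (adjusted p = 0.00406). Cyp4f15 was at 4.08 and 5.87 CPM in SISC and 1.21 and 1.17 in LISC, a log2 difference of -2.07 ± 0.51 (adjusted p = 0.150 in edgeR, DESeq2 adjusted p = 0.0173). Their coding sequences are 83.3% identical. Cyp4f14 was at 14.0 and 13.5 CPM in SISC against 17.5 and 26.4 in LISC, with a log2 difference of 0.68 ± 0.30 (edgeR adjusted p = 0.456). Cyp4f17 and Cyp4f39 were at 1.505 TPM or less as group means, and Cyp4f18, on another chromosome, had no count.

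Cyp4v3 is the mouse counterpart of human CYP4V2, a fatty acid hydroxylase whose loss causes Bietti crystalline dystrophy of the retina. The gene (ENSMUSG00000079057) lies on chromosome 8 from 45304944 to 45333216 on the minus strand. It was measured at 36.1 and 61.3 CPM in SISC against 6.49 and 9.38 in LISC. Each SISC library exceeded each LISC library, and the ratio within replicate numbers was -2.48 and -2.71. The log2 difference was -2.61 ± 0.39, with an edgeR adjusted p of 0.0505, just above the threshold of 0.05, and a DESeq2 adjusted p of 4.37e-07. Among the other family 4 genes, Cyp4b1 was at 2.11 and 2.59 CPM in SISC against 0.371 and 2.03 in LISC (edgeR adjusted p = 0.880). Cyp4a32, from the subfamily of PPAR-alpha targets, had 5 and 15 counts in SISC and none in LISC, at least 2.18-fold higher, and was not tested. Cyp4v3 overlaps a gene model on the same strand, Gm45753, the top partner among the 7.02% of its 50-base stretches that recur in other genes.

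In the higher-numbered families, Cyp20a1, Cyp27a1, Cyp27b1 and Cyp39a1 were tested, and each had a log2 difference under 1 in size. Cyp39a1, an oxysterol 7-alpha-hydroxylase, was the most abundant of these 4, at 17.03 and 23.8 CPM in SISC against 30.9 and 31.7 in LISC. Its groups did not overlap, and the log2 difference was 0.61 ± 0.27 (edgeR adjusted p = 0.452). Cyp27a1, the mitochondrial sterol 27-hydroxylase, was at 4.88 and 5.34 CPM in SISC against 4.08 and 6.15 in LISC, a log2 difference of 0.01 ± 0.42. Cyp27b1, which makes active vitamin D, was at most 0.340 TPM in any library, and Cyp24a1, which inactivates it, had 3 counts in SISC 1 and none elsewhere. Cyp20a1, a P450 of unknown substrate, was at 11.7 and 9.78 CPM in SISC against 13.1 and 12.5 in LISC, a log2 difference of 0.25 ± 0.26. Cyp11a1, the side-chain cleavage enzyme that starts steroid synthesis, had 5 and 28 counts in SISC and 0 and 3 in LISC. Its pooled ratio was 9.59-fold higher in SISC, with a 95% counting interval of 3.01 to 48.9, and a gene model on the same strand, Gm17322, overlaps it. The retinoic acid hydroxylases Cyp26a1 and Cyp26b1 had at most 3 counts in a library, and Cyp26c1 had none.

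Of the genes listed as ones that P450 enzymes depend on, those tested had log2 differences under 1 in size. Of 13 symbols of electron donors and haem-binding partners listed, 12 were in the annotation and 11 were tested. None was called in either direction by edgeR or by DESeq2, and none had an unadjusted edgeR p below 0.05. All 11 log2 differences were under 1 in size, with a median of 0.03 against -0.02 over all genes tested. Por was measured at 46.2 and 44.1 CPM in SISC against 67.7 and 69.3 in LISC, without overlap, a log2 difference of 0.60 ± 0.24 (adjusted p = 0.386 in edgeR). The 13 genes of haem synthesis and breakdown were all tested, and neither edgeR nor DESeq2 called any, with the same limit. None had an unadjusted p below 0.05, all were under 1 in size, and their median was 0.02. Alas1, the rate-limiting enzyme of haem synthesis, was at 46.6 and 45.3 CPM in SISC against 59.1 and 74.9 in LISC (log2 difference 0.54 ± 0.26, edgeR adjusted p = 0.516).

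Among 25 regulators listed, 23 were tested. By edgeR 2 of the 23 were called higher in LISC, against 1.45% of all genes, and none in SISC, against 0.741%. DESeq2 called 2 of them in each direction, against 5.54% of all genes for LISC and 2.81% for SISC. In 7 of the 23 the unadjusted edgeR p was below 0.05, against 13.4% of all genes. The median log2 difference of the 23 was -0.24. Pparg, the fatty acid receptor PPAR-gamma, was at 3.20 and 5.62 CPM in SISC against 58.2 and 83.3 in LISC. Its log2 difference was 3.99 ± 0.42 (edgeR adjusted p = 0.0267). Rarg, a retinoic acid receptor, was at 1.89 and 0.812 CPM in SISC against 20.4 and 19.01 in LISC, a log2 difference of 3.91 ± 0.50 (adjusted p = 0.0403 in edgeR). The classical P450 regulators were not called by edgeR. Nr1i2, which encodes the pregnane X receptor, was at 39.8 and 53.0 CPM in SISC against 40.6 and 47.2 in LISC, and Ahr had a log2 difference of 0.18 ± 0.28. Hnf4a was at 935 and 653 CPM in SISC against 432 and 397 in LISC, a log2 difference of -0.94 ± 0.39 (adjusted p = 0.418 in edgeR). Nr1i3, which encodes CAR, was at 4.80 and 3.69 CPM in SISC against 0 and 0.309 in LISC, uncalled in edgeR (adjusted p = 0.155) and called in DESeq2 (5.02e-04). Nr0b2, the co-repressor SHP, was at 1.02 and 2.16 CPM in SISC and at 0 counts in LISC, at least 8.33-fold higher against the floor (edgeR adjusted p = 0.115, DESeq2 adjusted p = 0.00379).

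A last list of 12 genes holds epoxide hydrolases, eicosanoid synthases, hydroxysteroid dehydrogenases, the cholesterol transport protein Star, Nqo1 and Tiparp. Of these, 8 were tested. By edgeR 3 were called higher in LISC, against 1.45% of all genes, and none in SISC, against 0.741%. DESeq2 called 4 higher in LISC and none in SISC, against 5.54% and 2.81% of all genes. An unadjusted edgeR p below 0.05 was reached by 5 of the 8, against 13.4% of all genes. The lists were chosen with earlier results of these data known, so these shares describe the list and are no test of it. Hsd11b2, which inactivates glucocorticoids, was at 10.8 and 3.66 CPM in SISC against 205 and 217 in LISC (log2 difference 4.88 ± 0.64, edgeR adjusted p = 0.0403). Hsd3b2, of the family that converts pregnenolone to progesterone, was at 0.437 and 0.9996 CPM in SISC against 13.3 and 14.3 in LISC (4.19 ± 0.52, edgeR adjusted p = 0.0363). Nqo1, a quinone reductase induced along with many P450 genes by foreign chemicals, was at 8.08 and 5.53 CPM in SISC against 63.6 and 79.0 in LISC (3.40 ± 0.33, edgeR adjusted p = 0.0227). The epoxide hydrolases Ephx1 and Ephx2, which open the epoxides that P450 enzymes form, had log2 differences of -0.56 ± 0.24 and -0.50 ± 0.41 and were not called. Ephx4, of the same family, had 0 counts in SISC and 18 and 73 in LISC. That is at least 13.4-fold higher in LISC, uncalled in edgeR (adjusted p = 0.0790) and called in DESeq2 (4.32e-04). Tiparp, another target of the aryl hydrocarbon receptor, was at 27.9 and 21.6 CPM in SISC against 9.45 and 13.3 in LISC, a log2 difference of -1.11 ± 0.31 (adjusted p = 0.188 in edgeR).

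**Figure D4:**
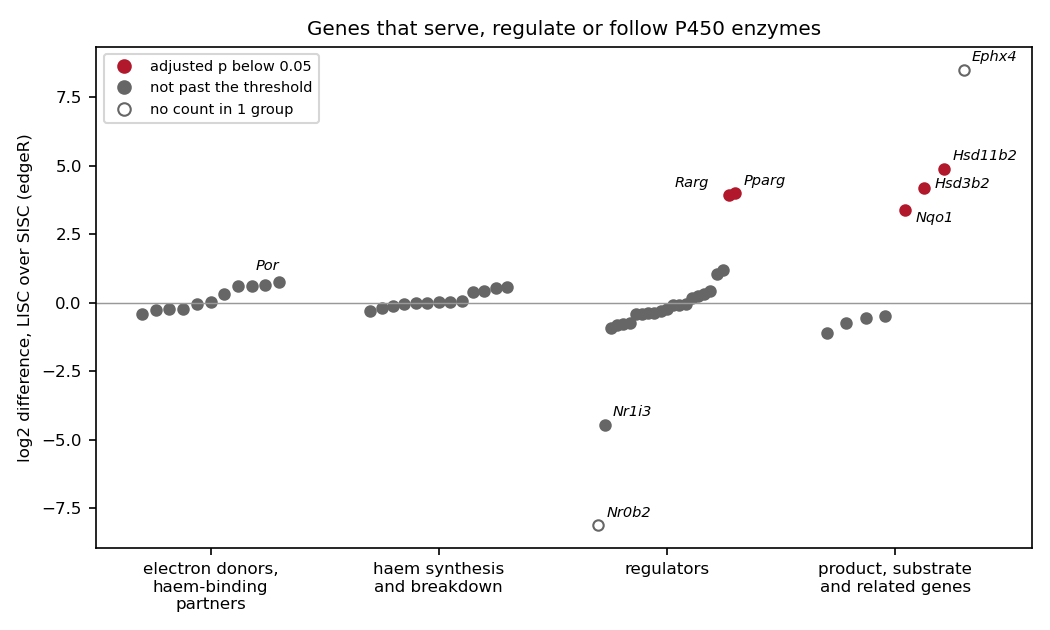
Log2 difference of LISC over SISC (edgeR) for each tested gene of 4 lists: electron donors and haem-binding partners (11 genes), haem synthesis and breakdown (13), regulators (23) and genes of P450 products, substrates and related steps (8). Red points have an adjusted p below 0.05 and open points have no count in 1 group. The first 2 lists stay within 1 log2 unit of 0, and the 5 red points belong to the other lists.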

How the data were processed

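Polyadenylated RNA was made into directional libraries, per the labels' protocols, and sample titles gave groups and replicate numbers. The submitters' processing notes name STAR 2.7.2b, RSEM 1.2.31 and GRCm38 (mm10). For the annotation release, strand setting and trimming, nothing was given in the sources used here. RSEM expected counts were deposited by the authors, with ambiguous reads divided among the genes they match, beside TPM, which is scaled by effective length, per the file headers. The deposited files also hold posterior SDs of the counts, lengths and effective lengths. Division of reads can move values between close copies. In replicate 1 libraries ribosomal RNA lowered the depth left for other genes.

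Identifiers were matched to GENCODE vM21 (55227 of 55487 had a symbol). Expected counts were rounded and tested with edgeR 4.0.16 under R 4.3.3 (quasi-likelihood, a group term alone, TMM factors, a filterByExpr minimum count of 10, Benjamini-Hochberg adjustment over 14165 genes, threshold 0.05). SEs are approximate, the log2 difference over the square root of F. Where a group was at 0 counts, the fold was bounded from below by setting 3 counts in each of its libraries, and intervals cover counting error only. In these bounds the other group entered as its mean CPM, so spread and counting error in that group are not covered. DESeq2 1.42.0, RLE factors, other filters, a replicate block, left-out libraries, removal of rRNA genes and limma 3.58.1 on log2(TPM + 0.1) and log2(TPM + 1) were alternatives. Promoter windows are from RefSeq and were searched with Python 3.11.15. The steps were checked on simulated data.

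Named were genes called, genes with a mean TPM of at least 5 in a group, the top gene of each subfamily with a member at 1 TPM or more, and untested genes whose counts summed to 10 or more. Of the other genes, Cyp2c66, Cyp2c68, Cyp2c70, Cyp2d22, Cyp2d34, Cyp2j9, Cyp3a25, Cyp4f15 and those given as absent or low were named after their values were seen, as were the list genes not called. Members and lists were chosen with earlier results of these data known.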

Additional observations from a re-analysis of the deposited data

How the results depend on the processing

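The count of P450 genes called higher in LISC was 4 and none of their directions turned under any alternative. DESeq2 gave 7 (background 5.54% of genes), as did no filter on low counts (background 3.92%). RLE factors gave 4 (background 1.27%), as did a minimum count of 30 (1.98%) and removal of rRNA genes (1.32%). On log2(TPM + 0.1) limma gave 3 (background 2.63%), and on log2(TPM + 1) it gave 2 (2.49%). Of the 4 genes called in the main fit, only Cyp2c55 and Cyp2w1 passed in either limma fit. Fits with 1 library left out assume that the lone library varies like the other group. The count higher in SISC was 0, with 5 genes at an unadjusted p below 0.05. It became 3 under DESeq2 (background 2.81%), 3 with no filter on low counts (1.94%) and 1 with a minimum count of 30 (Cyp4v3, 0.914%). With limma it was 2 at either pseudocount, 0.1 or 1 (background 1.26% and 1.21%). Genes of the 4 lists called higher in LISC were 5, and 5 to 6 under all alternatives other than the block. Those called higher in SISC were 0, and became 2 with DESeq2, 3 without a filter and 2 with limma at either pseudocount, but stayed 0 with 1 library left out. The cause of these shifts was not tested. With the replicate block, 6 P450 genes were called higher in LISC and 3 in SISC (background 7.17% and 3.70%), and 8 and 4 list genes. Replicate differences correlated across 14165 genes between the groups (0.648), yet 2 pairs with no stated shared animal or day do not establish a pairing.

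Cyp2c55 was called under every alternative, with an adjusted p of at most 0.0285 (limma, edgeR or DESeq2). Cyp2c65 was lost under both limma fits (0.0542 and 0.0596), and Cyp2d26 under both (0.436 and 0.487). Those fits used TPM without TMM factors, and TPM parted the replicates more than CPM did for Cyp2d26. In LISC it was at 11.6 and 28.4 TPM against 26.0 and 33.7 CPM. Whether this scale accounts for the losses was not tested. Among alternative values of single genes, 247 kept their side of the threshold, 19 passed it and 9 lost it. The 2 libraries a group, and the depth that ribosomal RNA took in replicate 1, limit the precision of every value here.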
